A study of Rattus norvegicus with 287 samples.

Results

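The subunits of oxidative phosphorylation were taken from a gene-level RNA-seq table of rat tissues as every gene whose symbol matched the Nduf subunit series (Ndufa, Ndufb, Ndufc, Ndufs and Ndufv), Sdha to Sdhd, Uqcr, Cox4 to Cox8 or Atp5, without the Ndufaf assembly factors, together with the mitochondrially encoded COX1 to COX3, ATP6, ATP8, CYTB, ND1 to ND6 and ND4L. The rule used no measured value and gave 101 genes of 32623, of which 88 were nuclear and 13 mitochondrial. The nuclear genes fell into complex I (37), complex II (4), complex III (9), complex IV (22) and complex V (16). The mitochondrial genes fell into complex I (7), complex III (1), complex IV (3) and complex V (2). The rule also took 5 nuclear genes that are not textbook subunits: Atp5if1 (the inhibitor of ATP synthase), Cox7a2l (a supercomplex factor), Ndufa4l2, Ndufa10l1 and Cox6c-ps1. Uqcrb and Cox6b1 each stood under 2 gene identifiers. Cox6c-ps1 had 0 counts over all libraries, Cox8c 2, Cox7b2 3, Ndufa10l1 15 and Ndufs6 97, and none of these 5 passed the filter on low counts in the tissue comparison.

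The series holds 287 libraries of 8 tissues, labelled adipose (48), blood (31), brain (31, hypothalamus in the design text), intestine (29), kidney (21), liver (55), muscle (52) and pancreas (20). The rats had been given focused ultrasound (pFUS) over the porta hepatis, where vessels and nerves enter the liver, for 3 minutes at 1.1 MHz under isoflurane, or a sham session with no energy. Male obese ZDF rats, a line that develops diabetes, had a 7-week control and a 7-week pFUS group of 5 rats each (4 in adipose) in all 8 tissues. Male lean Zucker rats had the same pair of groups with 5 rats, but 4 in adipose and muscle, and 3 pFUS rats in intestine, and no kidney or pancreas. In liver, muscle and adipose the obese ZDF rats also had a 3-day control and 3-day pFUS labelled AM only x1 or x10, and 4-week pFUS labelled AM & PM x1, AM & PM x10 or AM only x10, with 4 rats each and no 4-week control. Rats labelled DIO-stz, of both sexes, had 4 controls and 5 pFUS rats at 7 weeks (3 pFUS rats in adipose, 4 in muscle and pancreas), and 2 DIO Diet Resistant rats had pFUS (1 in adipose). The labels give no age, and the same replicate number in several tissues of a model was taken to be the same rat. The libraries are bulk tissue, so fewer cells of a type and less RNA per cell cannot be told apart.

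Oxidative phosphorylation makes ATP in the inner mitochondrial membrane. Complex I takes electrons from NADH and complex II from succinate, complex III passes them to cytochrome c, and complex IV gives them to oxygen. The proton gradient so made drives complex V, the ATP synthase. Complex II is wholly nuclear, while the other complexes combine subunits from both genomes. Several complex IV subunits exist as pairs, one of them found in most tissues and the other in heart and skeletal muscle: Cox6a1 and Cox6a2, Cox8a and Cox8b, Cox7a2 and Cox7a1. Cox4i2 is known from lung and from low oxygen, and Ndufa4l2 is the hypoxia-linked relative of Ndufa4.

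Total counts per library ran from 2380545 to 43088790 with a median of 12849617, and no 2 libraries of a group were alike within counting noise. The labels name a poly(A)-selecting kit for all tissues but pancreas and adipose, which had a total RNA kit, yet the libraries were of 2 kinds that did not follow this. In 116 of them, RNAs of 4083 genes that lack a poly(A) tail took 1.65% to 85.8% of the counts, and in the other 171 they took 0.00616% to 0.0773%. All pancreas libraries were of the first kind, as were 40 of 48 adipose libraries (not the DIO groups), 24 of 55 liver libraries (the 3-day and 4-week groups) and 32 of 52 muscle libraries (the 3-day and 4-week groups and the lean rats). ND6, the only member read from the light strand of mitochondrial DNA, moved with this: it took a median of 0.495% of the 13 mitochondrial genes' counts in the first kind and 0.0341% in the second. In human cells ND6 RNA is known to carry little or no poly(A) tail. Levels of members are given below as CPM, counts relative to the library total after TMM scaling within each fit. Levels from different fits are therefore not on the same scale. Levels of Ckm, Adipoq, Ucp1 and Umod and the sums of marker genes are also in CPM, but without TMM scaling. Since counts are not divided by transcript length, levels of different genes are not compared.

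Muscle, intestine and kidney gave the largest share of their counts to the nuclear members, and blood and pancreas the smallest. In 7-week obese controls the nuclear share was 2.43%, 2.02%, 2.39%, 2.93% and 2.26% in the muscle of rats 1 to 5, 1.66%, 2.25%, 2.07%, 1.89% and 1.94% in intestine, and 3.36%, 1.41%, 2.43%, 1.95% and 1.88% in kidney. Muscle, intestine and kidney overlapped, with kidney the most spread. In liver the share was 0.902%, 0.714%, 0.898%, 0.879% and 0.948%, and in brain 1.29%, 1.08%, 1.02%, 1.11% and 1.04%, so every brain value lay above every liver value and both lay below the lowest kidney value. The median was 0.967% in adipose, 0.112% in pancreas and 0.074% in blood. Globins and other red-cell markers took 651344 to 687045 CPM of the same blood libraries and exocrine enzyme transcripts 196165 to 261823 CPM of the pancreas libraries; their part in these low shares was not tested.

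The mitochondrially encoded members took a larger and less even share. In the obese controls the 13 genes had medians of 24.9% of counts in adipose (5.82% to 44.1% when a rat was left out), 21.2% in kidney, 13.4% in intestine, 10.1% in brain, 9.19% in muscle, 8.73% in liver, 0.451% in pancreas and 0.345% in blood. The adipose value lies between 2 low and 2 high rats, 5.82% and 4.47% in rats 1 and 2 and 44.1% and 46.9% in rats 4 and 5, the high ones with Ucp1 at 751 and 572 CPM, so its place among the tissues depends on them. Within kidney the 5 rats gave 7.07%, 14.3%, 21.2%, 21.3% and 40.1%, and within muscle 9.19%, 7.68%, 21.6%, 4.75% and 18.6%. Rat 1 had the highest nuclear and the lowest mitochondrial share in kidney, and rat 4 did so in muscle. The mitochondrial genes outnumbered the nuclear ones in counts by a median of 3.81 times in muscle and 10.2 times in kidney. COX1, the catalytic core of complex IV, was the most counted member and took a median of 29.3% of the mitochondrial counts in adipose to 43.7% in pancreas among these controls. Levels of the 2 genomes therefore did not rank the tissues alike, as the plot of both shares shows.

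**Figure D1:**
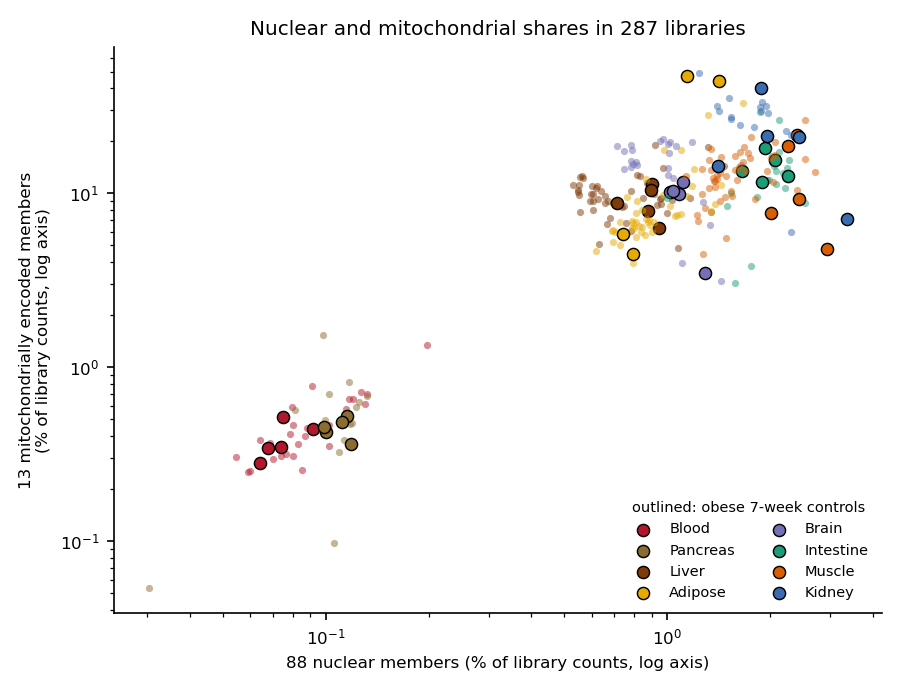
Share of each library's counts in the nuclear members (horizontal, percent, log axis) against the share in the 13 mitochondrially encoded members (vertical, percent, log axis) for 287 libraries coloured by tissue, with 7-week obese controls outlined. Blood and pancreas sit at the low end of both axes, muscle reaches the highest nuclear shares below kidney's 3.36%, and single tissues spread widely along the vertical axis.

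Nearly all members were higher in muscle than in the mean of the other tissues. Each of 6 tissues was compared with the mean of the other 5 over the 5 obese control rats (30 libraries, 16405 genes tested), with edgeR's quasi-likelihood test and Benjamini-Hochberg adjustment over all genes. In muscle, 78 of 83 nuclear members tested rose and 3 fell, and all 13 mitochondrial members rose, against 32.8% of all genes higher and 29.3% lower. The nuclear members had a median log2 fold change of 1.93, the mitochondrial ones of 1.20, and all genes tested of -0.17. The rise took in 34 of 35 complex I genes, 4 of 4 in complex II, 9 of 9 in complex III, 16 of 19 in complex IV and 15 of 16 in complex V.

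The rise in muscle ran through all 5 complexes. Ndufs7, a core subunit of complex I, stood at 219 to 743 CPM in muscle and at 18.7 to 132 CPM in the other tissues, without overlap (log2 fold change 3.19 ± 0.20, SE). Ndufs3, another core subunit, stood at 253 to 540 CPM in muscle and rose by 2.99 ± 0.16. Uqcr10, a small subunit of complex III, stood at 54.1 to 95.9 CPM in muscle and at 38.6 CPM or less elsewhere, again without overlap (2.53 ± 0.16). Atp5mc1, 1 of 3 genes for the rotor ring of ATP synthase, rose by 2.49 ± 0.20, from 240 to 638 CPM in muscle against 276 CPM at most elsewhere, where kidney overlapped it. All 4 complex II subunits rose: Sdha, which binds the flavin, by 1.61 ± 0.14, the iron-sulfur subunit Sdhb by 1.65 ± 0.14, and the membrane anchors Sdhc by 1.64 ± 0.16 and Sdhd by 1.93 ± 0.12. Sdha was at 415 to 600 CPM in muscle, 301 to 341 CPM in liver and 158 to 488 CPM in kidney, so muscle and kidney overlapped.

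Of the mitochondrial genes in muscle, ND1 rose by 1.72 ± 0.24, COX1 by 1.05 ± 0.26 (adjusted p = 0.000774) and ND6 by 1.63 ± 0.33. COX1 was at 20798 to 81092 CPM in muscle and at 14580 to 95026 CPM in kidney, which overlapped over nearly the whole range. COX2 rose least, by 0.73 ± 0.31 (adjusted p = 0.0414), and lost its call in 6 of 30 refits that left out a library, as ND5 did in 2.

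The 3 members that fell in muscle were Cox6a1, Cox8a and Atp5if1. Cox6a1 was at 36.9, 22.8, 21.5, 68.2 and 28.6 CPM in the muscle of rats 1 to 5 and at 110 CPM or more in every library of the other tissues (-2.67 ± 0.29, adjusted p = 1.74e-09). Its partner Cox6a2 was at 950, 781, 549, 1945 and 522 CPM in muscle and at 2.04 CPM or less elsewhere. Cox8a was at 38.5, 26.8, 25.0, 59.9 and 24.2 CPM in muscle and at 86.3 CPM or more elsewhere (-2.13 ± 0.25, adjusted p = 1.44e-08). Its partner Cox8b was at 504, 378, 430, 664 and 356 CPM in muscle, 0.197 to 1.12 CPM in brain, and 0 in blood and intestine. Muscle and the other tissues did not overlap for any of these 4 genes, so both pairs changed sides. Atp5if1, which blocks ATP hydrolysis by complex V, was at 24.4 to 31.3 CPM in muscle, above liver and below the other 4 tissues (-1.82 ± 0.19).

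As a share of the pair's counts, Cox6a2 held 93.5% to 97.4% over all 52 muscle libraries and Cox8b 83.7% to 94.9%. The Cox8b share was 83.7% to 86.6% in the DIO-stz controls, 84.8% to 91.0% in the DIO-stz pFUS rats and 91.7% to 94.5% in the obese 7-week controls. In brain the muscle forms reached at most 1.54% for Cox6a2 and 1.16% for Cox8b. The other pairs did not change sides. Cox4i1 rose in muscle with the rest (1.52 ± 0.19). Cox4i2 rose too, at 1.94 to 6.85 CPM in muscle against 1.47 CPM at most elsewhere (3.07 ± 0.35), but stayed at 1.46% or less of its pair in every library. Cox7a1, the textbook muscle form, was at 1.53 to 3.90 CPM in muscle, where it held at most 1.84% of its pair, and at 15.8, 15.2, 17.4, 25.4 and 20.3 CPM in intestine, where it held 7.52% to 26.7%. Muscle lay above the other 4 tissues and rose against the mean of all 5 (2.61 ± 0.36), but below every intestine library, and whether the annotated gene model counts the whole transcript was not tested. Ndufa4 was at 263 to 446 CPM in muscle. Ndufa4l2 was at 2.31 to 8.70 CPM there and 2.46 CPM or less elsewhere, with all blood libraries at 0, so its fitted value (5.08 ± 0.43, called) depends on the prior count.

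**Figure D2:**
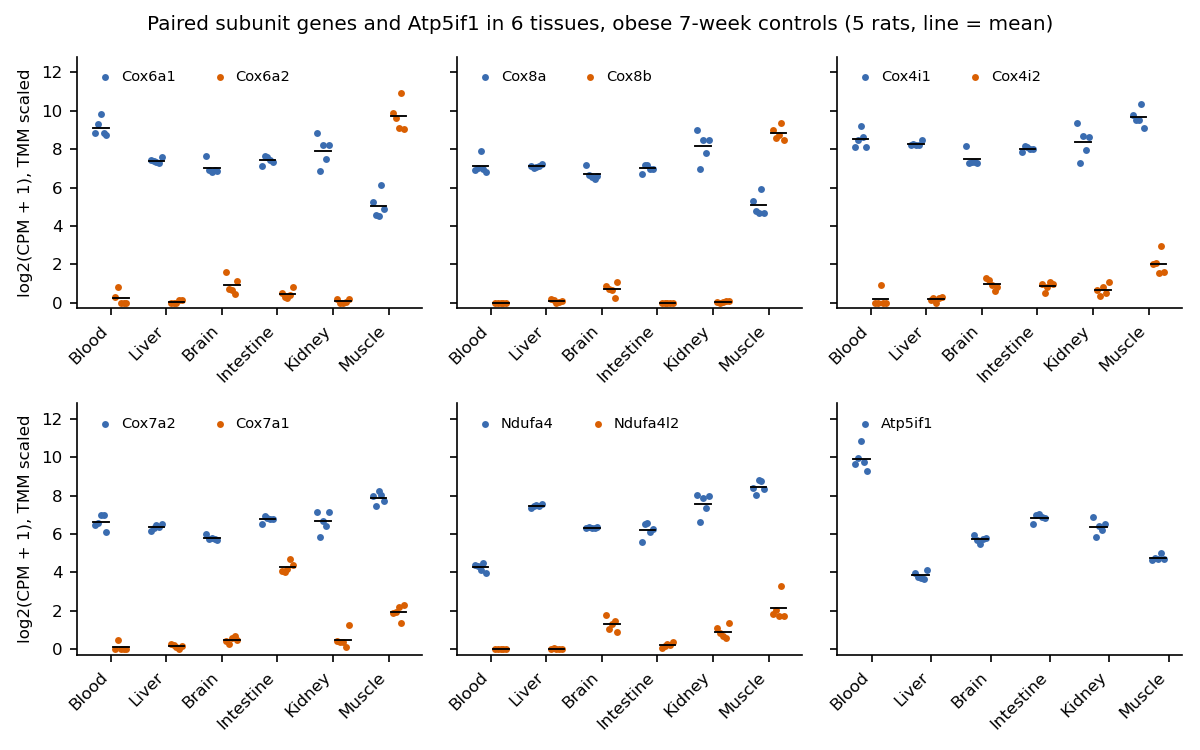
Levels of paired subunits and of Atp5if1 in 6 tissues of the 5 obese 7-week controls (vertical axis log2 of CPM plus a pseudocount, one point per rat, line at the mean). Cox6a1 and Cox8a are lowest in muscle where Cox6a2 and Cox8b are highest, Cox7a1 is highest in intestine, and Atp5if1 is highest in blood and lowest in liver.

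The 250 bases before the annotated start are shown for the pair that changed sides within complex IV, for Cox6a2, and for Sdha, a subunit that rose in muscle. They come from RefSeq (GRCr8, not the build used for counting), read 5′ to 3′ on the gene's strand. Capitals mark the motifs searched on both strands: the E-box CAGCTG in Cox6a2 and Cox8b, the MEF2 motif (CTA, any 4 bases, TAG) in Cox6a2, the ETS motif CCGGAAG in Cox8a, where it reads on the other strand, and the NRF1 motif (GCGC, any 2 bases, GCGC) in Sdha. Cox6a2 lies at chr1:192219717-192219966 (minus strand), Cox8b at chr1:205408274-205408523 (minus), Cox8a at chr1:213833624-213833873 (minus) and Sdha at chr1:30764303-30764552 (plus).
Cox6a2: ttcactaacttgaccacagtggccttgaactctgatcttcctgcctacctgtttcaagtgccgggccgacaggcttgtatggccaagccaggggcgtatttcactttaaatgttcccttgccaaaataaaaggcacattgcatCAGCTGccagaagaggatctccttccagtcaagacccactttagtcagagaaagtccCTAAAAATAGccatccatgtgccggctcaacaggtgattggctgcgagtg
Cox8b: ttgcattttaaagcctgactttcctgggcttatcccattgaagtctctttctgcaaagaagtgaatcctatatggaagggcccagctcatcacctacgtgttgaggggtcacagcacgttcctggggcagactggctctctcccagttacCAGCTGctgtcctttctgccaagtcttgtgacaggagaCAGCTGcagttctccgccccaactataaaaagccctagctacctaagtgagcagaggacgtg
Cox8a: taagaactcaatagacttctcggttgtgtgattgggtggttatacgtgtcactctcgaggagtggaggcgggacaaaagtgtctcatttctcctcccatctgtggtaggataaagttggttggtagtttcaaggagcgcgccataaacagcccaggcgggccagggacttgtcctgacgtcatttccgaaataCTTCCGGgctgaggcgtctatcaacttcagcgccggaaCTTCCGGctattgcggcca
Sdha: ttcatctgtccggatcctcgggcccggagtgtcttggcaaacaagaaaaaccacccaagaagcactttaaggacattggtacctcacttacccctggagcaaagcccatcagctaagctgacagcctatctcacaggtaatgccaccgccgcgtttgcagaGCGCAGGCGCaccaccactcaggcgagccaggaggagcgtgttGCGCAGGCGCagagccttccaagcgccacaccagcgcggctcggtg
The E-box and MEF2 motifs bind muscle regulators, and NRF1 and the ETS factor GABP are known regulators of respiratory genes. Cox6a1 had no entry. Of 86 nuclear symbols, 74 had a promoter window, from 250 bases before to 50 after the start. In these windows the NRF1 motif stood in 14 members (18.9%), against 5.58% of all 33469 promoters and 10.8% of the 13137 of genes with at least 1000 counts. ETS motifs stood in 20 members (27.0%, against 8.75% and 14.5%) and the YY1 motif GCCATNTT in 30 (40.5%, against 6.96% and 8.71%). The E-box stood in 12 members (16.2%, against 15.1% and 16.6%) and the MEF2 motif in 2 (2.70%, against 3.84% and 2.92%). These matches describe letters in the window, and the E-box and MEF2 motifs were chosen after the muscle values were known.

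Blood was low in most members, with a few high ones. Of 83 nuclear members, 62 fell and 7 rose in blood, and all 13 mitochondrial members fell, against 39.8% of all genes lower and 23.4% higher. The nuclear median was -1.74 and the median of all genes -0.75. Blood levels here are after TMM scaling across the 6 tissues, which raised them far above their part of the library counts. In these libraries all nuclear members together took a median of 0.0711% to 0.0746% of counts when a rat was left out. The sizes of the rises in blood depend on this scaling. Atp5if1 was at 791, 1012, 1851, 863 and 631 CPM in blood, above 132 CPM at most elsewhere (4.52 ± 0.14). Scaled among kidney libraries alone, Atp5if1 was at 221, 115, 157, 144 and 176 CPM in kidneys 1 to 5. Cox6a1 was at 450, 629, 913, 465 and 433 CPM in blood (2.15 ± 0.20), overlapping only kidney's highest rat at 463 CPM. Atp5if1 is known for its part in haem synthesis in maturing red cells of zebrafish and mouse. Uqcrh, the hinge subunit of complex III, was at 189 to 380 CPM (2.05 ± 0.13), and Cox7a2l at 140 to 223 CPM (1.56 ± 0.10). Among the falls, Atp5mc1 was at 7.71 to 15.0 CPM (-3.38 ± 0.32), Ndufs1, the largest subunit of complex I, at 8.16 to 24.9 CPM (-3.17 ± 0.22), and Ndufa4 at 15.0 to 21.5 CPM (-3.03 ± 0.21). Sdha was at 31.7 to 50.9 CPM (-2.72 ± 0.20). Blood was thus below every other tissue for Atp5mc1 and Sdha. With other scalings the median of all genes moved by 0.12 (RLE factors) and 0.35 (DESeq2) in blood, by 0.10 (RLE factors) in brain, by -0.15 (DESeq2) in intestine and by -0.13 and -0.17 in liver.

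Brain was low in nearly all members relative to the other tissues. There 69 of 83 nuclear members fell and 3 rose, and 9 of 13 mitochondrial members fell, against 29.5% of all genes lower and 40.1% higher. The nuclear median was -1.03, with all genes at 0.11. Cox7b, a complex IV subunit, was at 27.1 to 52.1 CPM (-1.88 ± 0.24), Sdhd at 40.3 to 42.2 CPM (-1.85 ± 0.16) and Uqcrh at 32.3 to 38.7 CPM (-1.80 ± 0.18). Sdhd in brain lay below intestine, at 174 to 269 CPM, and muscle, at 295 CPM or more, without overlap. The 3 that rose were Ndufa4l2, Cox8b and Cox4i2, each at 2.46 CPM or less in brain. COX1 was at 7853 to 14672 CPM (-1.31 ± 0.31).

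Kidney rose in part. There 42 of 83 nuclear members and 6 of 13 mitochondrial ones rose and 3 nuclear ones fell, against 31.3% of all genes higher and 17.9% lower. Cox8a was at 516, 123, 357, 223 and 352 CPM in kidney (1.68 ± 0.19), with rats 2 and 4 inside the range of other tissues. Sdhc was at 426, 107, 359, 203 and 260 CPM (1.47 ± 0.16), with rats 1 and 3 above every muscle library. COX1 rose by 0.90 ± 0.26 and CYTB, the mitochondrial core of complex III, by 0.97 ± 0.27. Both calls were lost without 1 of the 30 libraries, that of kidney rat 5 (adjusted p = 0.197 for COX1 and 0.255 for CYTB). Cox7a2l fell by 0.69 ± 0.11 on the log2 scale.

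Liver and intestine differed from the rest in both directions. In liver, 26 nuclear members rose and 12 fell and 6 mitochondrial ones rose, against 31.4% of all genes higher and 24.4% lower, so nuclear members rose about as often as all genes. Liver's falls were mostly in complex IV (8 of 19) and its rises mostly in complex I (15 of 35). Atp5if1 was at 11.7 to 16.5 CPM in liver, below every other tissue (-2.98 ± 0.21). Uqcrq, a small complex III subunit, was at 120 to 143 CPM (1.44 ± 0.18), overlapping muscle at 98.7 to 204 CPM. ND6 was at 18.1 to 52.8 CPM in liver and 16.1 to 83.6 CPM in muscle, and rose in liver by 1.66 ± 0.32. In intestine, 17 nuclear members rose and 12 fell and 1 mitochondrial one fell, against 37.1% higher and 22.8% lower, and 11 of the 12 falls were in complex I. Sdhd (1.14 ± 0.13) and Atp5mc3 (1.02 ± 0.16) rose there. Ndufb11 (-0.96 ± 0.21) and ND1 (-0.92 ± 0.30) fell, with ND1 at 1835 to 2867 CPM, overlapping brain and blood.

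Most assembly factors, citric acid cycle genes and carriers rose in muscle and fell in blood. In muscle, where 32.8% of all genes rose and 29.3% fell, 38 of 40 assembly factors tested rose and 0 fell, as did 12 of 13 citric acid cycle genes (1 fell, Suclg2) and 9 of 10 carriers. Slc25a4, the ADP/ATP carrier of muscle, rose by 6.59 ± 0.13 while its relative Slc25a5 fell by 3.82 on the log2 scale. Of the regulators, 3 of 11 rose in muscle and 0 fell, a share near that of all genes: Ppargc1a (2.15), the coactivator of mitochondrial genes, Esrra (1.73) and Ppargc1b (1.29). Of 20 genes of mitochondrial transcription and RNA handling, 10 rose and 4 fell there, and Tfam, which packs mitochondrial DNA, rose by 1.32 ± 0.11. The uncoupling protein Ucp3 was at 128 to 372 CPM in muscle and at 2.29 CPM or less elsewhere. In blood 39.8% of all genes fell. There 36 of 40 assembly factors, 12 of 13 citric acid cycle genes, 17 of 20 genes of mitochondrial RNA and 9 of 10 carriers fell. Ucp2 stood at 15225 to 42056 CPM in blood against 302 CPM at most elsewhere, after TMM scaling across the tissues, which raised blood levels. In liver, where 31.4% of all genes rose and 24.4% fell, 17 of the 20 genes of mitochondrial RNA rose and 1 fell. Polg, the mitochondrial DNA polymerase, rose there by 2.55. In kidney 31.3% of all genes rose and 17.9% fell. There 8 of 10 carriers and 7 of 13 citric acid cycle genes rose, and 1 of each fell. In brain 40.1% of all genes rose and 29.5% fell. There 8 of 10 carriers and 11 of 13 citric acid cycle genes fell, and 1 of each rose. In intestine 37.1% of all genes rose and 22.8% fell. There 10 of 13 citric acid cycle genes and 8 of 11 regulators rose and 0 fell.

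The adipose libraries held 3 patterns of the same pairs. In 5 of 48 libraries (lean control rat 12, lean pFUS rats 17, 18 and 19, and obese pFUS rat 6) Cox6a2 held 97.1% to 97.5% of its pair and Cox8b 91.6% to 94.8%, as in muscle. Ckm, the creatine kinase of muscle, stood at 16510 to 21792 CPM in these 5 libraries, and Adipoq, an adipocyte hormone, at 0.162 to 15.6 CPM, so the label adipose went against their markers. In obese control rats 4 and 5, Cox6a2 was at 0% while Cox8b held 23.6% and 25.8%, the 13 mitochondrial genes took 44.1% and 46.9% of counts, and Ucp1, the uncoupling protein of brown fat, stood at 751 and 572 CPM. Rat 37 of the 3-day x10 group had 11.2% for Cox8b, 28.1% for the mitochondrial share and 106 CPM of Ucp1. Obese pFUS rat 9 had both marker sets, with Ckm at 2580 CPM, Ucp1 at 1184 CPM, Cox6a2 at 33.1% and Cox8b at 45.1%, and the highest nuclear share in adipose at 1.66%. Lean control rat 11 had 5.35% and 2.12%, with Umod, a kidney tubule gene, at 474 CPM. In the other 38 libraries Cox6a2 held at most 1.19% and Cox8b at most 0.299%.

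**Figure D3:**
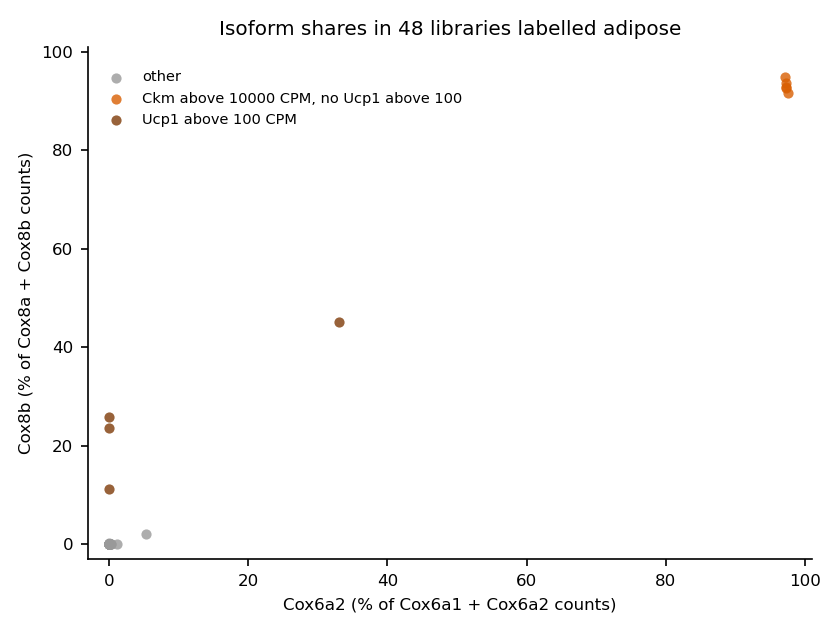
Cox6a2 as a percent of Cox6a1 plus Cox6a2 (horizontal) against Cox8b as a percent of Cox8a plus Cox8b (vertical) for 48 adipose libraries, coloured by high Ckm or high Ucp1. The 5 libraries with high Ckm sit at 97.1% or more and 91.6% or more, those with high Ucp1 alone lie along the vertical axis up to 25.8%, and most lie near 0 on both.

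Obese and lean muscle at 7 weeks differed in most members, in libraries that also differed in kind. Of 82 nuclear members tested, 75 were higher in obese controls and 0 lower, against 52.6% of all 12577 genes called, 27.0% higher and 25.5% lower. The nuclear median was 1.06 and that of all genes 0.07. RNAs without poly(A) took 0.006% to 0.031% of the obese control libraries and 4.03% to 9.30% of the lean ones, so obesity and library kind cannot be told apart here. The nuclear share was 2.02% to 2.93% in obese 7-week controls and 1.26% to 1.38% in lean controls. In obese 3-day controls, of the same kind as the lean libraries, it was 1.13% to 1.36%, and in DIO-stz controls, of the same kind as the obese 7-week ones, 1.39% to 1.81%.

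Uqcr10 was at 73.8, 59.1, 75.1, 94.3 and 51.9 CPM in obese controls 1 to 5 and at 7.01, 9.98, 11.6 and 8.99 CPM in lean controls 11 to 14 (2.92 ± 0.22, adjusted p = 1.80e-08). In obese 3-day controls, scaled in another fit and of the library kind of the lean rats, it was at 6.07, 7.21, 4.80 and 5.44 CPM, below all but the lowest lean value. In DIO-stz controls, also scaled in another fit but of the library kind of the obese 7-week rats, it was at 15.7, 16.9, 18.7 and 18.7 CPM. Those values lay above every lean and below every obese 7-week value. Cox4i1 was at 796, 671, 698, 1282 and 528 CPM against 293, 356, 306 and 292 CPM (1.35 ± 0.23), and Cox6a2 at 866, 722, 523, 1913 and 501 CPM against 338, 470, 398 and 354 CPM (1.21 ± 0.31). Cox8b was at 459, 350, 409, 653 and 341 CPM against 157, 190, 195 and 182 CPM (1.29 ± 0.22). Obese and lean did not overlap in these genes, and the partners Cox6a1 (1.33 ± 0.29) and Cox8a (0.89 ± 0.25) rose too. In complex II, Sdhd was at 314, 273, 469, 358 and 331 CPM against 176, 172, 183 and 180 CPM (0.97 ± 0.16), with Sdhb at 0.95 ± 0.23 and Sdhc at 0.94 ± 0.17. Sdha, at 469, 384, 571, 548 and 492 CPM against 342, 444, 386 and 350 CPM, overlapped and was not called (0.37 ± 0.17, adjusted p = 0.067). Cox7b, Ndufa1, Ndufa4l2, Ndufs1, Ndufs5 and Uqcrc2 were not called either.

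Of the mitochondrial members, ND6 was at 14.7, 14.9, 79.6, 16.0 and 38.1 CPM in obese and 338, 176, 464 and 242 CPM in lean muscle and fell without overlap (-3.22 ± 0.54). COX1, at 41012, 29807, 77169, 20458 and 53053 CPM against 25980, 15926, 30682 and 21183 CPM, rose by 0.92 ± 0.35 but lost its call in 5 of 9 refits without a library. ND1 (0.72 ± 0.30) lost it in 7 of 9, and the other 10 were not called. Slow-fibre markers summed to 653 to 2229 CPM in obese and 79.1 to 285 CPM in lean controls, and fast-fibre markers to 134163 to 194913 CPM and 147985 to 203248 CPM; their part in the difference was not tested. Of all genes, 27.0% were higher and 25.5% lower in this comparison. Around the complexes, 22 of 40 assembly factors rose and 1 fell, 7 of 13 citric acid cycle genes rose and 0 fell, and Ucp3 rose by 4.21. Of the regulators, Esrra rose (0.96) and 5 of 11 fell, Ppargc1b (-2.13) and Ppargc1a (-1.92) among them.

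**Figure D4:**
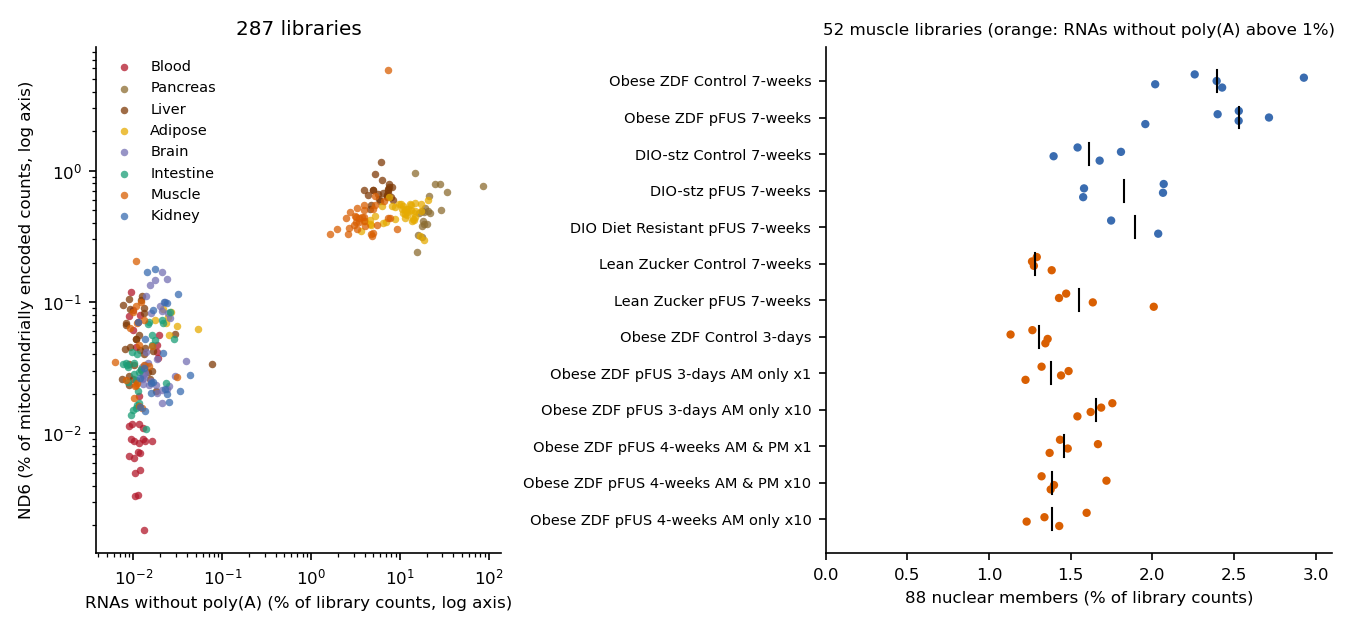
Left, ND6 as a percent of mitochondrial counts against the percent of counts in RNAs without poly(A) for all libraries (both log axes). Right, nuclear share of the 52 muscle libraries by group with a line at the median, orange where RNAs without poly(A) exceed 1%. Obese 7-week controls (2.02% to 2.93%) lie above the 3-day controls (1.13% to 1.36%) and above the DIO-stz controls of their own library kind (1.39% to 1.81%).

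In the other tissues obese and lean controls differed in few members. In blood, Ndufa12, an accessory subunit of complex I, was the only one called of 89, against 3.16% of all genes called and 2.34% higher. It was at 8.83, 11.6, 16.8, 9.20 and 4.57 CPM in obese and 2.34, 7.70, 2.21, 2.83 and 2.98 CPM in lean blood, where lean rat 12 overlapped (1.57 ± 0.42, adjusted p = 0.0454, lost in 8 of 10 refits). Without lean control rat 12 and lean pFUS rat 18, 12 were called, 11 of them higher, against 7.38% of all genes. Those 2 blood libraries were listed by hand as standing apart, with no stated criterion. Lean rat 12 was also the one that overlapped for Ndufa12, so this count is no independent test. In brain, ND3, a core subunit of complex I, was the only one called of 96, against 0.338% of all genes called and 0.196% lower. It was at 246, 485, 582, 679 and 766 CPM in obese and 775, 1741, 1383, 1147 and 1552 CPM in lean brain, with no overlap (-1.26 ± 0.27, adjusted p = 0.0413, lost in 7 of 10 refits). All 13 mitochondrial members had a value below 0 there, with a median of -0.92, but obese rat 1 (3.45% mitochondrial) and lean rat 11 (3.11%) were both low. In liver 0 of 90 were called against 14.3% of all genes, with 13 at an unadjusted p below 0.05 and 4 called by DESeq2. Intestine (0 of 94, background 0.0136%) and adipose (0 of 95, background 0.0291%) gave none by edgeR, with 1 and 6 at an unadjusted p below 0.05, and DESeq2 called 0 and 1. The adipose groups held lean control 12, with the markers of muscle, lean control 11, with Umod, and obese controls 4 and 5, with Ucp1. Without these libraries and the others of the fit listed by hand as standing apart, 2 rats remained in each group. Then 15 nuclear members were called, all lower in obese, against 15.2% of all genes.

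Treatment for 7 weeks with pFUS in obese rats gave no called member in any of the 8 tissues when all libraries were used. The members called by edgeR were 0 of 90 in liver, 0 of 95 in muscle, 0 of 89 in blood, 0 of 96 in brain, 0 of 94 in intestine, 0 of 95 in adipose, 0 of 93 in kidney and 0 of 87 in pancreas. The background of all genes called was 0.397%, 0.119%, 0.00%, 0.00%, 0.0612%, 0.00%, 0.105% and 0.0616% in that order. Members with an unadjusted p below 0.05 numbered 0, 0, 6, 1, 70, 3, 0 and 3. DESeq2 called 21 in intestine, 1 in adipose and 0 in the other 6. The backgrounds printed are edgeR's. The share of all genes called by DESeq2 is not given, so its counts cannot be set against a background. In adipose with all libraries, all 13 mitochondrial members had a value below 0, with a median of -0.87. Without controls 4 and 5 (high Ucp1) and pFUS rats 6 and 9 (high Ckm), 2 rats a group were left. Then 5 mitochondrial members were called, all higher, against 8.09% of all genes. Controls 4 and 5 were those with the high mitochondrial shares, so the direction turned on the libraries taken out. In intestine the 70 members compare with 18.6% of all genes at an unadjusted p below 0.05, and 79 of 81 nuclear and all 13 mitochondrial members had a value above 0, with medians of 0.44 and 0.70 and all genes at -0.04. ND6 had the lowest adjusted p, at 0.0689. ND3 was at 998, 593, 898, 592 and 1153 CPM in controls and 2702, 1562, 1458, 1630 and 1105 CPM in pFUS rats 6 to 10, and Ndufs7 at 70.6, 86.3, 88.6, 77.9 and 80.1 CPM against 153, 110, 93.5, 115 and 91.3 CPM. For Ndufs7 the groups did not overlap, and for ND3 pFUS rat 10 fell among the controls. Leukocyte markers summed to 719 to 5349 CPM in the controls and 807 to 1227 CPM in pFUS, and exocrine pancreas markers to 13253 CPM in pFUS rat 7 against 24.2 CPM at most in the others; their part was not tested. Without control rat 1 and lean rats 11 and 14, 9 members were called, all higher, against 2.59% of all genes. Among them were ND3 (1.07), ND4L (0.72), ND5 (0.80) and Sdhc (0.50). These libraries were listed by hand as standing apart, with no stated criterion. This refit kept pFUS rat 6, whose mitochondrial share was 26.2% against 14.0% to 17.3% in the other pFUS rats. Its calls are therefore no independent test of pFUS.

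In lean rats the members called by edgeR after 7 weeks of pFUS were 0 of 90 in liver, 0 of 95 in muscle, 0 of 89 in blood, 0 of 96 in brain, 0 of 94 in intestine and 0 of 95 in adipose. The background was 0.389%, 0.00%, 0.00%, 0.00%, 0.00680% and 0.00%, and members with an unadjusted p below 0.05 numbered 46, 41, 1, 11, 7 and 1. DESeq2, whose share of all genes is not given, called 14 in liver and 0 elsewhere. Of all genes, 23.9% had an unadjusted p below 0.05 in liver and 5.84% in muscle. In adipose, pFUS rats 17, 18 and 19 and control 12 had the markers of muscle, so 3 of the 4 pFUS libraries went against their label. The other one, pFUS rat 16, had Umod at 172 CPM, so without the libraries that stood apart no lean pFUS adipose library remained. Without pFUS rat 16 alone, 2 members were called, against 13.6% of all genes. In liver the count turned on single libraries, control 15 above all. Atp5f1d, the delta subunit of the ATP synthase stalk, was at 98.6, 78.4, 74.9, 80.4 and 406 CPM in lean controls 11 to 15 and at 399, 335, 196, 160 and 182 CPM in pFUS rats 16 to 20. Control 15 was the highest of the 10, and the other 4 controls lay below every pFUS rat (0.79 ± 0.38, adjusted p = 0.214). Atp5f1e, the epsilon subunit beside it, was at 104, 93.9, 69.3, 90.4 and 457 CPM against 690, 483, 207, 158 and 143 CPM, where control 15 lay below pFUS rats 16 and 17 and above the rest, and the other 4 controls lay below every pFUS rat (1.05 ± 0.46, adjusted p = 0.172). Ndufs1 was at 84.6, 80.1, 105, 85.6 and 51.8 CPM against 48.8, 27.0, 65.4, 80.6 and 68.5 CPM, and Uqcrc2, a core protein of complex III, at 120, 125, 153, 129 and 65.1 CPM against 103, 37.3, 102, 105 and 93.3 CPM, so control 15 was the low one for both. Sdha, at 218, 210, 233, 208 and 204 CPM against 171, 144, 218, 212 and 238 CPM, overlapped fully.

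Without lean liver control 15, edgeR called 38.7% of all genes and 67 of 90 members: 61 nuclear and 4 mitochondrial ones rose, led by Atp5f1e (1.91 ± 0.35), Atp5f1d (1.61 ± 0.22) and Ndufs7 (1.41 ± 0.20), and Ndufs1 (-0.61 ± 0.22) and Uqcrc2 (-0.58 ± 0.21) fell. COX1 rose by 0.95 ± 0.24 in that refit. With it, 73 of 77 nuclear members had a value above 0, with a median of 0.58 and all genes at -0.04, and the lowest adjusted p was 0.0594. Without pFUS rat 20 instead, 23 members and 5.78% of all genes were called, and without pFUS rat 19, 3 members and 2.32%. In obese liver 45 of 77 nuclear members had a value above 0, with a median of 0.01, and Atp5f1d was at 84.5 to 99.9 CPM in controls and 81.6 to 121 CPM in pFUS. The difference between the obese and lean responses was called for 0 of 90 members (15 at an unadjusted p below 0.05, 0 by DESeq2, background 0.405%) and for 48 without control 15 (21.1% of all genes), of which 47 nuclear ones and 1 mitochondrial one were lower in obese. Red-cell markers in lean liver summed to 1251, 1394, 804, 980 and 5999 CPM in controls 11 to 15 and 2362, 8382, 1326, 2935 and 1252 CPM in pFUS, against 233 to 745 CPM in obese controls. Hepatocyte markers were at 119953 to 132064 CPM in lean controls and 99160 to 136011 CPM in pFUS. Control 15 was thus high in red-cell markers, as pFUS rat 17 was; their part in the result was not tested.

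**Figure D5:**
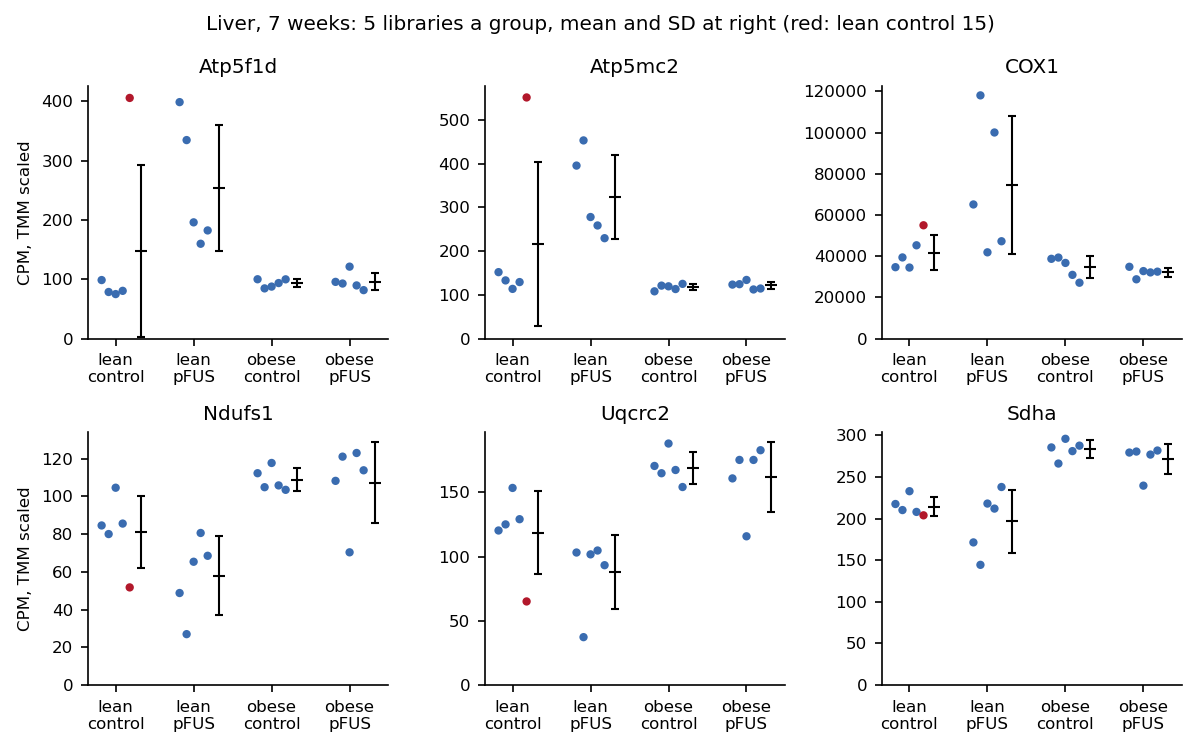
Levels (CPM) of Atp5f1d, Atp5mc2, COX1, Ndufs1, Uqcrc2 and Sdha in liver of lean and obese controls and pFUS rats at 7 weeks, one point per rat with mean and SD, lean control 15 in red. Lean control 15 is the highest lean control for Atp5f1d at 406 CPM and the lowest for Ndufs1 at 51.8 CPM.

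In lean muscle 81 of 82 nuclear members had a value above 0 with pFUS, with a median of 0.44 and all genes at 0.02, but the lowest adjusted p was 0.441. The nuclear share was 1.38%, 1.27%, 1.26% and 1.29% in controls and 2.01%, 1.63%, 1.43% and 1.47% in pFUS, without overlap. Slow-fibre markers summed to 2431, 2606, 93.0 and 69.6 CPM in the pFUS rats, so the 2 rats with the highest nuclear share were also high in them; their part was not tested. In obese muscle only 29 of 82 had a value above 0, and the difference between the 2 responses was called for 0 of 95 (19 at an unadjusted p below 0.05, 0 by DESeq2, background 0.00%).

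In DIO-stz rats the fits held a term for sex, and edgeR called 0 members in each of the 8 tissues: 0 of 90 in liver, 0 of 95 in muscle, 0 of 89 in blood, 0 of 95 in brain, 0 of 95 in intestine, 0 of 93 in adipose, 0 of 93 in kidney and 0 of 87 in pancreas. The background was 1.15%, 0.00%, 0.0277%, 0.00%, 0.00%, 0.0464%, 0.159% and 0.992%, and members with an unadjusted p below 0.05 numbered 9, 16, 3, 1, 3, 6, 36 and 15. DESeq2, whose share of all genes is not given, called 2 in liver, 1 in muscle, 17 in kidney, 1 in pancreas and 0 in the other 4. The values that follow are from kidney. There COX1 was at 153607, 119154, 192250 and 147491 CPM in controls 3 to 6. In pFUS rats 7 to 11 COX1 was at 97848, 89605, 87837, 80407 and 26994 CPM. The groups did not overlap, yet COX1 missed the threshold (-1.38 ± 0.36, adjusted p = 0.159). ND1 was at 35321, 26209, 42485 and 34064 CPM against 20235, 18897, 17358, 17645 and 5280 CPM, also without overlap (-1.52 ± 0.34, adjusted p = 0.112). The mitochondrial share was 33.4%, 35.2%, 49.2% and 28.9% against 31.8%, 29.5%, 24.1%, 26.8% and 5.95%, so rat 11 was the lowest by far. Uqcrh, at 124, 86.4, 110 and 125 CPM against 71.8, 61.7, 72.3, 66.1 and 58.1 CPM, did not overlap and had the lowest adjusted p, 0.0855 (-0.81 ± 0.16). Without kidney control rat 6, 19 members were called, all lower, 10 nuclear and 9 mitochondrial, against 2.63% of all genes in that refit. Without kidney control rat 4, 2 were called, against 0.909%. Kidney tubule markers summed to 4536 to 6861 CPM in controls and 7391 to 11569 CPM in pFUS; their part was not tested.

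The short series gave 3 calls over 3 days. In liver after x1, Ndufb8, an accessory subunit of complex I, was the only one called of 90, against 1.33% of all genes called and 0.622% lower. It was at 39.3, 36.0, 41.6 and 40.9 CPM in controls and 32.7, 30.9, 28.6 and 31.4 CPM with pFUS, without overlap (-0.35 ± 0.09, adjusted p = 0.0488, lost in 7 of 8 refits). After x10, 0 of 90 were called in liver (11 at an unadjusted p below 0.05, 0 by DESeq2, background 2.08%). In muscle after x10, 2 of 95 were called, against 0.628% of all genes and 0.228% higher. DESeq2, whose share of all genes is not given, called 16, and edgeR without a filter 0. Atp5mg, subunit g of the ATP synthase membrane part, was at 149, 157, 118 and 177 CPM in controls and 225, 210, 299 and 278 CPM with pFUS (0.75 ± 0.17, adjusted p = 0.0440). Ndufa2, an accessory complex I subunit, was at 33.2, 38.8, 31.8 and 37.3 CPM against 47.3, 51.6, 69.6 and 54.7 CPM (0.66 ± 0.15, adjusted p = 0.0440). Neither gene overlapped, and each lost its call in 7 of 8 refits.

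Around these 2 genes, 80 of 82 nuclear members had a value above 0 in muscle after x10, with a median of 0.41 and all genes at 0.01, and 50 of the 95 members had an unadjusted p below 0.05, against 18.1% of all genes. The nuclear share was 1.34%, 1.36%, 1.13% and 1.26% in controls, 1.22%, 1.44%, 1.49% and 1.32% after x1, and 1.54%, 1.62%, 1.69% and 1.75% after x10, where the last group lay above all others. RNAs without poly(A) took 1.97% to 2.64% of the control and 3.90% to 6.62% of the x10 libraries, and fast-fibre markers 127980 to 153833 CPM and 81607 to 134023 CPM; their part was not tested. After x1, 0 of 95 were called in muscle (1 at an unadjusted p below 0.05, 0 by DESeq2, background 0.0314%). In adipose 0 of 93 were called after x1 and after x10 (0 and 1 at an unadjusted p below 0.05, 0 by DESeq2, backgrounds 0.0216% and 0.0503%).

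At 4 weeks, without a control, schedules were compared with each other. Between AM & PM x10 and x1, edgeR called 0 of 90 members in liver and 0 of 95 in muscle (4 and 3 at an unadjusted p below 0.05, 0 by DESeq2, backgrounds 0.985% and 0.00%). Between AM & PM and AM only at x10 it called 0 of 90 and 0 of 95 (8 and 1, 0 by DESeq2, backgrounds 1.88% and 0.00%). The nuclear share of these 4-week groups spanned 0.548% to 0.678% (liver), 1.23% to 1.72% (muscle) and 0.618% to 0.887% (adipose). Comparisons within a model share control rats, so their values are not independent of each other.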

How the data were processed

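RNA of 287 rat tissue samples was sequenced and counted per gene by the authors. The deposited table holds expected counts from RSEM after STAR 2.5.3a alignment to Rnor_6.0, per the submitters' processing notes; the annotation release and strand setting are not given in the sources used here. Expected counts were rounded to whole numbers. RSEM divides reads shared by near-identical copies, so paralogs and genes listed more than once (Uqcrb, Cox6b1) are uncertain. The transcript-level table was not used.

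Genes were filtered with filterByExpr (minimum count 10), scaled by TMM and tested with edgeR 4.0.16 quasi-likelihood fits (R 4.3.3), with Benjamini-Hochberg adjustment over all genes tested and a threshold of 0.05. The 46 comparisons comprise 6 tissue contrasts over 5 obese control rats, the obese and lean contrasts, and pFUS against control within each model and tissue. They also hold the contrasts between 4-week schedules and the difference between the obese and lean responses, each in liver and muscle. ± is the standard error of a log2 fold change. DESeq2 1.42.0, RLE factors, no filter, library sizes without mitochondrial genes, each library left out and a rat block were tried. The same replicate number was taken to mark the same rat. Deviations of tissues with the same number correlated with a median r of 0.0646 over 75 pairs (-0.593 to 0.577). The median was -0.0182 over 300 pairs with different numbers (-0.616 to 0.667), so these correlations cannot decide whether the rat is the same. Each fitting script was tested on simulated data. Nothing in the labels beyond the replicate numbers says how rats were housed or handled, so p-values measure the spread between these animals.

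The members and gene lists were chosen with earlier results of these data known. Named genes are members past the threshold at a mean of 10 CPM or more in a group, up to 4 of the largest rises and falls per comparison, the isoform pairs, complex II and the mitochondrial genes, with up to 4 genes per pathway list. Others named were chosen after their values were seen. Figures were drawn with matplotlib 3.10.9.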

Additional observations from a re-analysis of the deposited data

Results flagged for a closer look

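Of 120 tests of a group's highest or lowest share, 7 found a library farther from the rest of its group than Dixon's test allows, and chance gives about 1 in 20. In adipose of the 3-day x10 group, rat 37 had a mitochondrial share of 28.1% while the others had 5.03% to 8.03%. Its library is the one with Ucp1 at 106 CPM. In brain, DIO-stz control 3 had a nuclear share of 0.711% (others 0.780% to 0.785%), lean control 11 had 1.44% (others 0.953% to 1.01%), and obese control 1 had a mitochondrial share of 3.45% (others 9.94% to 11.6%). In intestine, lean control 14 had a nuclear share of 1.50% (others 2.09% to 2.29%), and obese pFUS rat 6 had a mitochondrial share of 26.2% (others 14.0% to 17.3%). In liver, DIO-stz pFUS rat 7 had a nuclear share of 1.08% (others 0.665% to 0.784%). No cause of these departures was tested.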

How the results depend on the processing

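The count of members called stayed within 1.5 times the value reported in 46 of 46 comparisons with RLE factors. It did so in 46 of 46 with library sizes without mitochondrial genes and with the earlier quasi-likelihood estimate (chosen after seeing the data). It did so in 33 of 46 with DESeq2 and in 42 of 46 without a filter. With male libraries only it did so in 8 of 8, the DIO-stz comparisons. All of these had 0 members called, so the refits on fewer libraries could only show that no call was gained. Without RNAs lacking poly(A) it did so in 4 of 4, the muscle comparisons of obese and lean rats. Of these only obese against lean had any member called. Taking out those RNAs does not remove the difference in library kind, so this refit cannot separate obesity from it. DESeq2 called 4 (obese against lean liver), 14 (lean pFUS liver), 2 (3-day x1 liver), 2 (DIO-stz liver), 16 (3-day x10 muscle), 1 (DIO-stz muscle), 3 and 2 (obese against lean blood and brain), 21 (obese pFUS intestine), 1 (obese against lean adipose), 1 (obese pFUS adipose), 17 (DIO-stz kidney) and 1 (DIO-stz pancreas). The shares of all genes called by DESeq2 are not given. Without a filter, 2 were called in obese against lean liver and 0 in 3-day x1 liver, 3-day x10 muscle and obese against lean blood. The libraries that stood apart were listed by hand, with no stated criterion. In liver they were lean control 15 and obese pFUS rat 7. Without them, 3 were called in obese against lean liver, 67 in lean pFUS liver and 48 for the liver difference. Control 15 left out alone also gave 67 and 48, against 38.7% and 21.1% of all genes. Without those of the other tissues, 12 were called in blood, 3 in brain and 9 in obese pFUS intestine. In adipose 15 (all lower) were called in obese against lean and 5 with pFUS in obese rats. No value was possible for lean pFUS adipose. The share of all genes is not given for the liver and brain counts without all listed libraries. The cause was not tested.

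With a replicate block for the rat, the tissue contrasts called 80 in blood, 82 in brain, 31 in intestine, 47 in kidney, 43 in liver and 91 in muscle, against 82, 81, 30, 51, 44 and 94 without it. In the pFUS comparisons the groups are different rats. No paired analysis was possible because control and pFUS groups share no replicate numbers.

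Leaving out each library gave 0 to 3 in obese against lean liver (3 without lean control 13), 0 to 67 in lean pFUS liver, 0 to 48 for the liver difference (48 without lean control 15), 0 to 2 in 3-day x1 and 0 to 1 in 3-day x10 liver (both highest without control 44), 0 to 1 in DIO-stz liver (1 without pFUS 7), 0 to 3 in 3-day x10 muscle, 0 to 3 in blood (3 without obese control 5), 0 to 2 in brain (2 without lean control 11), 0 to 1 in obese pFUS intestine (1 without control 5), 0 to 2 in lean pFUS adipose (2 without pFUS 16), 0 to 19 in DIO-stz kidney and 0 to 1 in DIO-stz pancreas (1 without control 5). In the tissue contrasts it gave 76 to 83 (blood), 77 to 83 (brain), 25 to 37 (intestine), 35 to 64 (kidney), 32 to 45 (liver) and 87 to 95 (muscle), and 76 to 80 in obese against lean muscle. Of 2484 refits of named genes, 76 lost a call, 24 gained one and 0 changed sign.

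With counts of mitochondrial genes taken out of the denominator, the median nuclear share became 1.49% in adipose, 1.20% in brain, 2.37% in intestine, 3.08% in kidney, 1.00% in liver and 2.78% in muscle, and with textbook subunits only it was 0.0604% in blood. Leaving out a rat gave median nuclear shares of 0.794% to 1.14% (adipose), 0.0711% to 0.0746% (blood), 1.06% to 1.10% (brain), 1.91% to 2.00% (intestine), 1.92% to 2.19% (kidney), 0.888% to 0.900% (liver), 2.33% to 2.41% (muscle) and 0.106% to 0.113% (pancreas). The mitochondrial medians became 5.82% to 44.1%, 0.343% to 0.394%, 10.0% to 10.2%, 13.0% to 14.5%, 17.7% to 21.2%, 8.30% to 9.55%, 8.44% to 13.9% and 0.437% to 0.466% in the same order. Cox8c, Cox7b2 and Ndufs6 had too few counts to be tested; whether the annotated gene model of Ndufs6 counts its whole transcript was not tested.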

Other observations

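In DIO-stz liver all 13 mitochondrial members had a value below 0 with pFUS, with a median log2 fold change of -0.60, and none was called. The mitochondrial share was 11.3%, 13.9%, 8.52% and 12.5% in controls and 4.82%, 6.05%, 8.27%, 8.48% and 6.68% in pFUS rats, without overlap. COX3, a core subunit of complex IV, had the lowest adjusted p (-0.84 ± 0.22, edgeR adjusted p = 0.117). In DIO-stz intestine 80 of 82 nuclear members had a value above 0, with a median of 0.41, while 6 of 13 mitochondrial ones did; the lowest adjusted p was 0.927.

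The mitochondrial genes did not keep 1 ratio in every tissue. ND2, a membrane subunit of complex I, took 0.715% to 3.37% of mitochondrial counts in the 20 pancreas libraries and 4.69% to 10.3% in the 48 adipose libraries, without overlap. Both tissues were prepared with the total RNA kit, per the labels. The 8 adipose libraries of the DIO groups nevertheless held only 0.0175% to 0.0528% of RNAs without poly(A), and some adipose libraries held markers of other tissues. In pancreas, DIO-stz control 6 had 85.8% of its counts in RNAs without poly(A), and its nuclear and mitochondrial shares, 0.0303% and 0.0539%, were the lowest of the tissue.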
